A study of Mus musculus with 11 samples.

Results

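The transcripts of 10 imprinted genes that act on growth were followed in whole lacrimal glands of male NOD mice, of 19058 genes in the table of estimated counts. The genes were *H19*, *Igf2*, *Dlk1*, *Meg3*, *Plagl1*, *Peg3*, *Mest*, *Cdkn1c*, *Ndn* and *Grb10*. *H19* was chosen by its measured level, which was lowest in Ifnar1 KO mice, and its values are therefore given as a description with no test. The other 9 were chosen because imprinting and growth control link them with *H19*, to see whether they moved with it. All 10 were listed in the table.

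NOD mice are an inbred strain in which males spontaneously develop lymphocytic inflammation of the lacrimal gland. The groups were wild-type (WT) mice (n = 3), Tlr7 KO mice (n = 5), which lack a receptor for single-stranded RNA, and Ifnar1 KO mice (n = 3), which lack a subunit of the type I interferon receptor. A further Ifnar1 KO mouse was left out by the authors because its expression profile and gland inflammation resembled those of WT mice, and its column is not used here, so the Ifnar1 KO mice are a selected group. Both knockouts were made on the NOD background, 1 library was made for each mouse, and the knockouts were compared with the same 3 WT mice. WT and Tlr7 KO mice were 20 to 22 weeks old, and an age for the Ifnar1 KO mice is not given in the sources used here. Each knockout is a single line, and Tlr7 carries a short deletion made by gene editing that leaves the rest of the gene to be transcribed. Whole-gene counts therefore do not test the Tlr7 label, and the edited Ifnar1 allele also still gave counts. Tlr7 stood at 1.52 to 2.94 CPM (counts scaled to a common library size) in WT, at 0.494 to 0.949 in Tlr7 KO and at 0.251 to 0.822 in Ifnar1 KO mice. Ifnar1 stood at 10.5 to 15.1, 8.34 to 11.2 and 8.34 to 9.63 CPM in the same order. Neither gene separated the knockouts from each other.

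An imprinted gene is expressed mainly from the copy inherited from a single parent, because DNA methylation laid down in the egg or sperm silences the other copy. *H19* and *Igf2* are the textbook pair: they share enhancers, the maternal chromosome uses them for *H19*, a non-coding RNA, and the paternal chromosome for *Igf2*, which encodes a fetal growth factor. Several such genes form a set that is high in embryonic tissues and falls after birth, and *H19* remains detectable in adult skeletal muscle. *Dlk1*, *Plagl1*, *Peg3*, *Mest*, *Ndn* and *Igf2* are expressed from the paternal copy, and *H19*, *Meg3*, *Cdkn1c* and, in most tissues, *Grb10* from the maternal copy. Which copy the transcripts came from was not measured here.

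*H19* lies on the minus strand at chr7:142575529-142578143 (GRCm38, GENCODE M21) and is annotated as a long intergenic non-coding RNA with 7 transcripts. *Igf2* lies on the same strand at chr7:142650766-142666816, 72.62 kb away. The *H19* RNA also carries the hairpin of microRNA miR-675, at chr7:142577064-142577147, which is found within 3 of the 7 annotated *H19* transcripts. These sequences are shown because they are the part of *H19* with a known product. The hairpin has its mature arms in capitals, and the mature arms have the seed (bases 2 to 8) in capitals (RefSeq, GRCm38.p6):
mir-675 hairpin: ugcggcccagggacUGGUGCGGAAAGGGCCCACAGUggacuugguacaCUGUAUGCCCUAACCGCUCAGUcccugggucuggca
miR-675-5p: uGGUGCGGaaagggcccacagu
miR-675-3p: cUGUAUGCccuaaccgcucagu

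The seeds of the arms differ. The microRNA itself was not measured. The hairpin gene was at 0 counts in all 11 mice in the second deposited count table, and the first does not list it. It lies inside *H19* on the same strand, so the 0 does not tell the level of the microRNA.

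Promoter windows from 250 bases before to 50 after a start site were taken from RefSeq (GRCm38.p6) for 8 of the 10 genes, 15 windows in all, and *H19* and *Cdkn1c* had no entry. They were searched on both strands for GGGGCC, the core of the motif of PLAGL1, a zinc finger factor, and for GAAANNGAAA, the core of the motif that interferon-activated factors bind. GGGGCC was in 8 of the 15 windows and in 25.0% of all 32851 windows, and GAAANNGAAA was in 1 of the 15 and in 3.44% of all. The windows are not independent, since *Igf2* has 4 and *Mest* 3, and 2 of the *Mest* windows overlap and share their match to GGGGCC. No match of one motif overlapped the other in the windows printed. The windows of *Igf2* that hold a match are shown, because *Igf2* was lower in both knockouts, with the matches in capitals. All are on the minus strand. The first is at chr7:142666767-142667066, the third at chr7:142658755-142659054 and the fourth at chr7:142657447-142657746.
Igf2 window 1: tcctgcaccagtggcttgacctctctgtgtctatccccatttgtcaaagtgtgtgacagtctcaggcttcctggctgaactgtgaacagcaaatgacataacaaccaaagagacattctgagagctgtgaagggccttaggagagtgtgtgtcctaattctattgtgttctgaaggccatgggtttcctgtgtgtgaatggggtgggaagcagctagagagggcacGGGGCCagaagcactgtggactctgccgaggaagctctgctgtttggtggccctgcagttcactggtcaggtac
Igf2 window 3: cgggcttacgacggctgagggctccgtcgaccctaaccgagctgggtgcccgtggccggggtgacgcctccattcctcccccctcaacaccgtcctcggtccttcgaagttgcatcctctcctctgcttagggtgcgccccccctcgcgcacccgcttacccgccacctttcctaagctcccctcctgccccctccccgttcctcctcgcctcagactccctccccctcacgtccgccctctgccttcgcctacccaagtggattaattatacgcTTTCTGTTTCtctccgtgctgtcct
Igf2 window 4: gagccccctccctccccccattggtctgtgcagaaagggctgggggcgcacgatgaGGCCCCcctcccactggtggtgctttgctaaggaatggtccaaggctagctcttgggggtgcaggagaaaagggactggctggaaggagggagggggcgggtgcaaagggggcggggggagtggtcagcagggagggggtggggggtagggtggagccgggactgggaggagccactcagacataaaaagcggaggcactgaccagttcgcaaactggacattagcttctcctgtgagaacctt

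Windows 1 and 4 each hold 1 match to GGGGCC, and window 3 holds 1 match to GAAANNGAAA near its start site. A match is a run of letters and not a measured binding site.

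The libraries held 20512315 to 28814250 counts assigned to genes, and 3 counts corresponded to 0.0819 to 0.158 CPM. Summed over 7 genes of gland epithelium, WT mice had 984 to 1204 CPM, Tlr7 KO mice 1363 to 1443 and Ifnar1 KO mice 1382 to 1601. No gene was at 0 in any mouse, and for the sum every WT mouse was below every knockout mouse. *Bhlha15* led the sum, with means of 467, 658 and 752 CPM in WT, Tlr7 KO and Ifnar1 KO mice. In the same order, *Epcam* had 74.0, 72.3 and 71.4, *Cdh1* 50.5, 47.0 and 51.2 and *Slc12a2* 25.1, 15.5 and 14.5, so the genes did not move together. Some libraries also held transcripts of other tissues. Summed over 8 skeletal muscle markers, WT 1 had 367 CPM, WT 2 had 256 and Tlr7 KO 4 had 255, against 0.502 to 10.9 CPM in the other 8 mice. These 3 are called the mice with muscle transcripts, although the others held some too. From 0 to 6 of the 8 muscle markers were at 0 in those other libraries, and 0 of them in Ifnar1 KO 2, which had the 10.9 CPM. Of 6 salivary gland markers, 5 were in the table. Their sum was 2455 CPM in WT 3, 178 in Ifnar1 KO 1 and 2103 in Ifnar1 KO 2, against 0.650 to 3.11 in the other mice. Summed over 11 B and T cell markers, WT mice had 105 to 363 CPM, Tlr7 KO mice 13.9 to 81.8 and Ifnar1 KO mice 4.60 to 36.0. In whole tissue, fewer cells of a type and less RNA per cell cannot be told apart.

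*H19* was most abundant in 2 of the 3 WT mice. It had 139 counts (4.75 CPM) in WT 1, 125 counts (5.27 CPM) in WT 2 and 20 counts (0.546 CPM) in WT 3. In Tlr7 KO mice it stood at 0.842, 0.652, 0.342, 2.26 and 0.950 CPM in mice 1 to 5, from 22, 15, 9, 55 and 18 counts. In Ifnar1 KO mice it stood at 0.272, 0.224 and 0.251 CPM, from 6 to 8 counts each. The WT and Tlr7 KO mice overlapped. Each of the 3 Ifnar1 KO mice kept by the authors was below every other mouse, the trait by which *H19* was chosen. The nearest were Ifnar1 KO 1 with 8 counts and Tlr7 KO 3 with 9, and in the second deposited count table they had 4 and 6. The mean ± SD was 3.52 ± 2.59 CPM over the 3 WT mice, 1.01 ± 0.738 over the 5 Tlr7 KO mice and 0.249 ± 0.0241 over the 3 Ifnar1 KO mice. As a description, the fitted log2 fold change relative to WT was -1.79 for Tlr7 KO mice and -3.80 for Ifnar1 KO mice, and that of Tlr7 KO relative to Ifnar1 KO mice was 2.0.

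**Figure D1:**
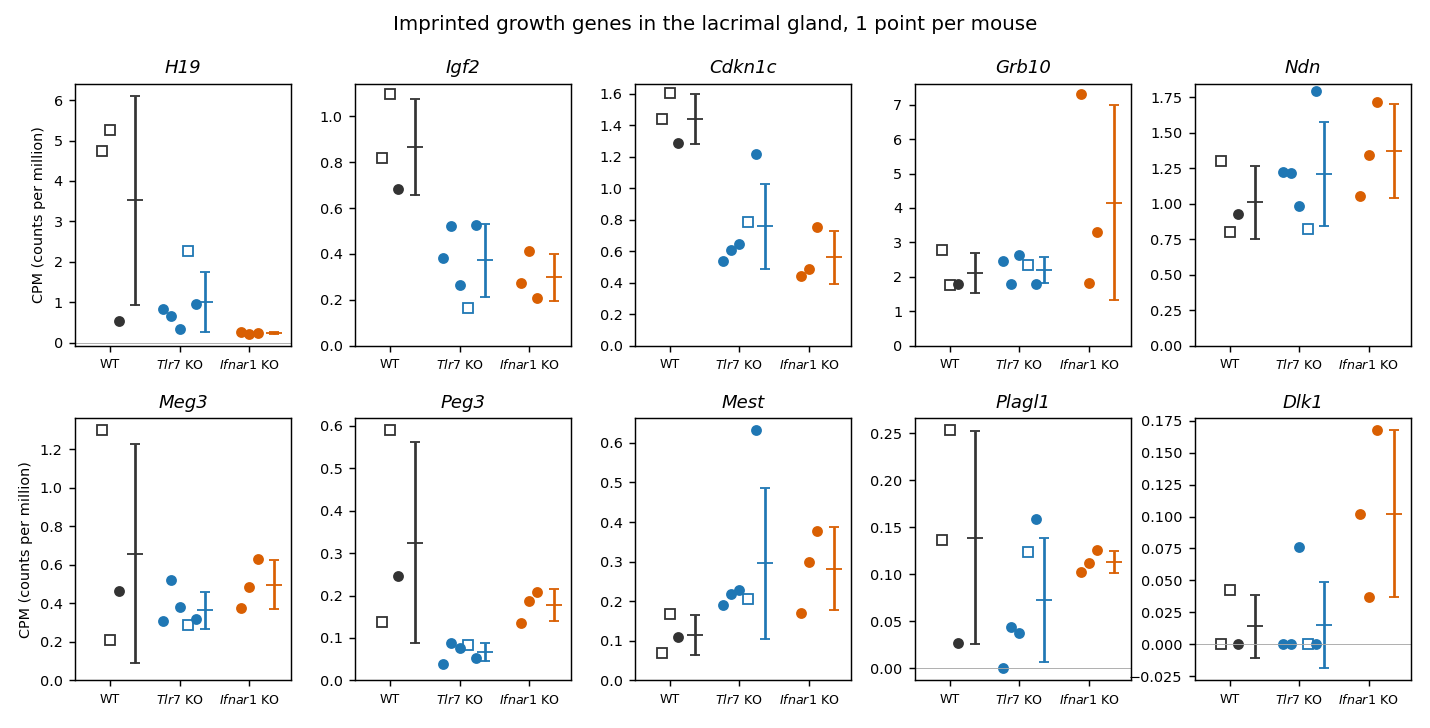
CPM (linear axes that include 0 and differ between panels) of the 10 imprinted genes, with 1 point per mouse and the mean ± SD beside each group of WT (n = 3), Tlr7 KO (n = 5) and Ifnar1 KO (n = 3) mice; open squares mark the 3 mice with skeletal muscle transcripts (WT 1, WT 2 and Tlr7 KO 4). The 3 squares are the 3 highest points for *H19*, at 2.26 to 5.27 CPM, while for *Igf2* they include the lowest point, at 0.165 CPM.

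The 3 mice with the highest *H19* were the 3 with muscle transcripts. They had 2.26 to 5.27 CPM of *H19*, and the other 8 mice had 0.224 to 0.950. Within those 8 mice, WT 3 had 0.546 CPM and lay among the Tlr7 KO mice at 0.342 to 0.950. The Ifnar1 KO mice, by whose low level *H19* was chosen, were the lowest. Without the 3 mice, a choice made after the values were seen, the description of *H19* changed. Its log2 fold change turned to 0.34 in Tlr7 KO relative to WT and moved to -1.15 in Ifnar1 KO relative to WT. Each has a single WT mouse left, WT 3, which held salivary gland transcripts (2455 CPM summed over the markers). Without Tlr7 KO 4 alone, *H19* in Tlr7 KO relative to Ifnar1 KO was 1.45. The B and T cell markers did not follow the same order, since WT 3 had 310 CPM of them with low *H19* and Tlr7 KO 4 had 24.2 CPM with high *H19*. The part of the muscle transcripts in the *H19* level was not tested.

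**Figure D2:**
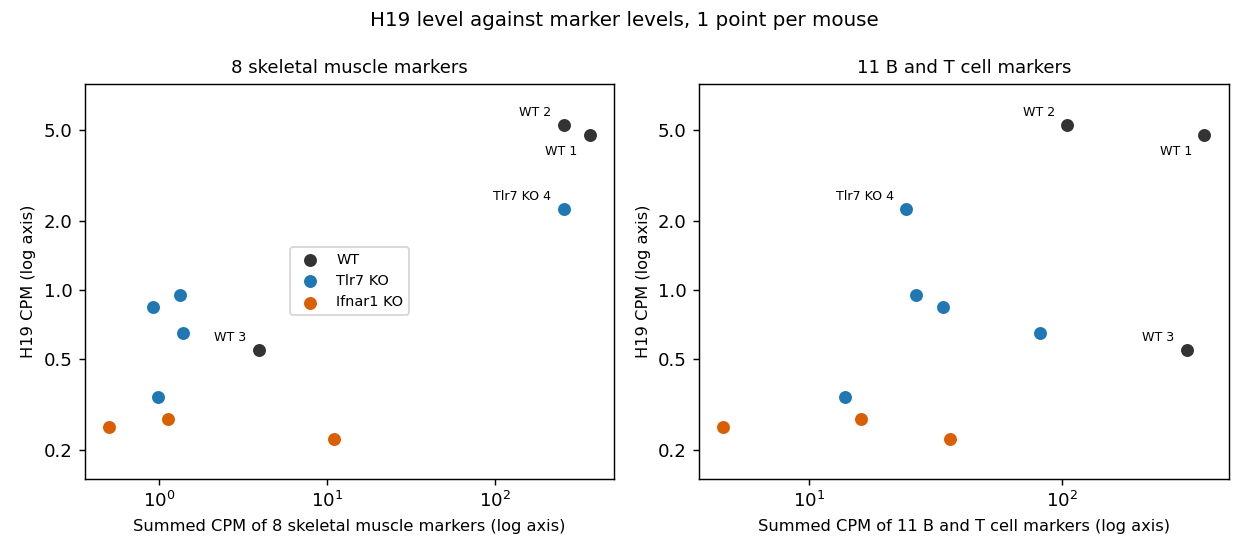
*H19* level in CPM against the summed CPM of 8 skeletal muscle markers (left) and of 11 B and T cell markers (right), on log axes, with 1 point per mouse colored by group. On the left, WT 1, WT 2 and Tlr7 KO 4 stand apart on both axes (over 250 CPM of muscle markers and 2.26 to 5.27 CPM of *H19*), and on the right WT 3 combines 310 CPM of B and T cell markers with 0.546 CPM of *H19*.

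The genes whose log2 CPM was most like that of *H19* over the 11 mice were ranked over the 11391 tested genes that averaged 1 CPM or more. Of the first 5, 4 are described: *Ndrg2* (Pearson r = 0.96, Spearman rho = 0.84), *Myom1* (r = 0.93, rho = 0.79), *Nrap* (r = 0.91, rho = 0.66) and *Lypla2* (r = 0.90, rho = 0.91). *Myom1* encodes a protein of the sarcomere M-band and *Nrap* an actin-binding protein of muscle. Since 3 of the mice stood apart in muscle transcripts, these values are a description with no p. *Myom1* stood at 2.59 to 4.61 CPM in the 3 mice and at 0.272 to 0.536 in the other 8. *Nrap* stood at 1.98 to 5.14 against 0 to 0.211 CPM. Over the 8 other mice alone, r with *H19* was 0.77 for *Ndrg2*, 0.56 for *Myom1*, 0.31 for *Nrap* and 0.82 for *Lypla2*. *Lypla2*, a lysophospholipase that many tissues express, ranged from 13.3 to 16.3 CPM over all 11 mice.

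The genes next to *H19* on chromosome 7 were read in the same mice. *Tnnt3* and *Tnni2* encode troponins of fast skeletal muscle and lie 59.52 and 131.12 kb from *H19*, and they are given because their values were seen. *Tnnt3* had 33.9 to 51.5 CPM in the 3 mice with muscle transcripts and 0 to 1.20 in the other 8. *Tnni2* had 18.2 to 24.3 against 0 to 0.374 CPM. Of 8 neighbours 5 were tested, and 2 of them passed in Tlr7 KO and 1 in Ifnar1 KO mice, where 32.5% and 19% of all genes tested passed. *Lsp1*, a leukocyte actin-binding protein, fell in Tlr7 KO mice by 1.65 ± 0.41 on the log2 scale (SE, edgeR adjusted p = 0.0198), and *Ctsd*, the lysosomal protease cathepsin D, rose by 0.31 ± 0.08 (adjusted p = 0.0185). In Ifnar1 KO mice, *Lsp1* fell by 2.64 ± 0.50 (adjusted p = 0.0257). With libraries scaled by their size only, the median of all genes tested stood at -0.54 in Tlr7 KO mice and *Ctsd* at -0.17, which is 0.36 relative to that median.

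*Igf2*, the partner of *H19*, was lower in both knockouts. It had 24, 26 and 25 counts in WT mice (0.820, 1.10 and 0.683 CPM), 10, 12, 7, 4 and 10 in Tlr7 KO mice (0.165 to 0.528 CPM, median 0.383) and 8, 11 and 5 in Ifnar1 KO mice (0.209 to 0.411 CPM, median 0.272). Every WT mouse was above every knockout mouse, and the knockouts overlapped. *Igf2* fell by 1.22 ± 0.39 on the log2 scale in Tlr7 KO mice (SE, edgeR quasi-likelihood test, adjusted p = 0.0393) and by 1.54 ± 0.43 in Ifnar1 KO mice (adjusted p = 0.0443). WT 3, with low *H19*, had 25 counts of *Igf2* beside 24 and 26 in the other WT mice, and Tlr7 KO 4, with the highest *H19* of the knockouts, had the fewest *Igf2* counts of all 11 mice.

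*Cdkn1c*, which encodes the cyclin-dependent kinase inhibitor p57 and lies 791.52 kb from *Igf2* in a separate imprinted domain, had the same order of groups. It had 42, 38 and 47 counts in WT mice (1.28 to 1.60 CPM), 14, 14, 17, 19 and 23 in Tlr7 KO mice (0.536 to 1.21 CPM, median 0.646) and 13, 13 and 18 in Ifnar1 KO mice (0.442 to 0.754 CPM). Every WT mouse was above every knockout mouse. *Cdkn1c* fell by 0.94 ± 0.29 on the log2 scale in Tlr7 KO mice (SE, edgeR adjusted p = 0.0329) and by 1.38 ± 0.34 in Ifnar1 KO mice (adjusted p = 0.0337). It is known as a maternally expressed inhibitor of growth, and *Igf2* as a paternally expressed promoter of it. Both were lower here, and the parental copy was not measured.

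Whether the members moved with *H19* is described here by correlations of log2 CPM over the 11 mice, with no p, since the mice share groups and 3 of them hold muscle transcripts. *H19* had a Pearson r of 0.57 (Spearman rho 0.50) with *Igf2* and of 0.73 (rho 0.72) with *Cdkn1c*, and its r with the other 7 genes ranged from -0.43 to 0.44. For deviations from the group means, r was 0.044 with *Igf2* and 0.33 with *Cdkn1c*, and the highest was 0.76 with *Plagl1*, which had 0 to 6 counts per mouse.

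The filter of at least 30 counts over the WT mice was passed by 6 of the 10 genes, and the 5 besides *H19* were tested. Against WT, 2 of these 5 were called lower in Tlr7 KO mice and none higher, where 17.1% of the 13937 genes tested were called lower, 15.3% higher and 32.5% in either direction. In Ifnar1 KO mice, the same 2 were called lower and none higher, where 12.1% of all genes were called lower, 6.92% higher and 19% in either direction. The WT mice did not overlap the Tlr7 KO mice for 30.9% of all genes tested, nor the Ifnar1 KO mice for 41.8%. The comparisons share their 3 WT mice. The filter acts on WT counts only, so genes that are low in WT mice were left out of the test however high they were in the knockouts, and the counts over the genes that passed are a description. *Igf2* had 24 counts in all over the Ifnar1 KO mice, fewer than the filter asked of WT mice. Without the filter, *Igf2* was no longer called in Ifnar1 KO mice (edgeR adjusted p = 0.0528), and *Cdkn1c* was (adjusted p = 0.0400).

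The calls for *Igf2* and *Cdkn1c* were near the threshold. With WT 1, WT 3, Tlr7 KO 1, Tlr7 KO 3 or Tlr7 KO 4 left out in turn, neither passed in Tlr7 KO mice. Without WT 2, *Igf2* (adjusted p = 0.0729) did not pass, and without Tlr7 KO 2, *Cdkn1c* (adjusted p = 0.0599) did not. In Ifnar1 KO mice neither passed without WT 1, WT 3 or any single Ifnar1 KO mouse. Over all single omissions *Igf2* remained lower by 1.02 to 1.38 and by 1.35 to 1.83 on the log2 scale in Tlr7 KO and Ifnar1 KO mice, and *Cdkn1c* by 0.84 to 1.16 and by 1.21 to 1.66. Without the 3 mice with muscle transcripts, Tlr7 KO mice stood at -0.69 for *Igf2* (adjusted p = 0.336) and -0.79 for *Cdkn1c* (adjusted p = 0.225), and Ifnar1 KO mice at -1.21 (adjusted p = 0.213) and -1.23 (adjusted p = 0.149). With scaling by library size only neither was called in Ifnar1 KO mice, and with the replicate block neither was called in either knockout. In the second deposited count table both were called in both knockouts, with *Igf2* at -1.57 (adjusted p = 0.0148) in Tlr7 KO and at -2.34 (adjusted p = 0.0226) in Ifnar1 KO mice, from 15, 19 and 21 counts in WT and 4, 3 and 3 in Ifnar1 KO mice. The fits without the mice with muscle transcripts hold WT 3 as the single WT mouse, take the spread from the knockout mice alone and so say little about the calls.

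Markers of other cells are given beside these values, where 32.5% of all genes tested passed in Tlr7 KO and 19% in Ifnar1 KO mice. Of the 11 B and T cell markers, 11 fell in Tlr7 KO and 10 in Ifnar1 KO mice. Of the 7 endothelial markers, 2 fell (*Pecam1* and *Cdh5*) and 1 rose (*Kdr*) in Tlr7 KO mice, and 1 fell (*Pecam1*) in Ifnar1 KO mice. They summed to 17.1 to 29.9 CPM in WT, 13.4 to 17.7 in Tlr7 KO and 9.17 to 12.3 in Ifnar1 KO mice, so that WT and Tlr7 KO mice overlapped. Of the 8 fibroblast markers, the same 2 (*Pdgfra* and *Dcn*) fell in each knockout, and the 8 summed to 88.5 to 210.3 CPM in WT, 109.9 to 194.9 in Tlr7 KO and 99.3 to 137 in Ifnar1 KO mice. Of the 7 adipocyte markers, 6 were tested and 0 passed by edgeR in either knockout (at an unadjusted p under 0.05, 0 in Tlr7 KO and 1 in Ifnar1 KO mice), and they summed to 16.6 to 20.3 CPM in WT, 7.02 to 35.6 in Tlr7 KO and 3.27 to 14.98 in Ifnar1 KO mice. Of the 7 gland epithelium genes, 3 rose and 1 fell in Tlr7 KO mice and 1 rose and 1 fell in Ifnar1 KO mice. Of the 7 myoepithelial and duct markers, 6 fell in Tlr7 KO and 2 in Ifnar1 KO mice, and they summed to 83.7 to 105 CPM in WT, 49.7 to 63.4 in Tlr7 KO and 68.2 to 70.7 in Ifnar1 KO mice. Their part in the levels of *Igf2* and *Cdkn1c* was not tested.

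**Figure D3:**
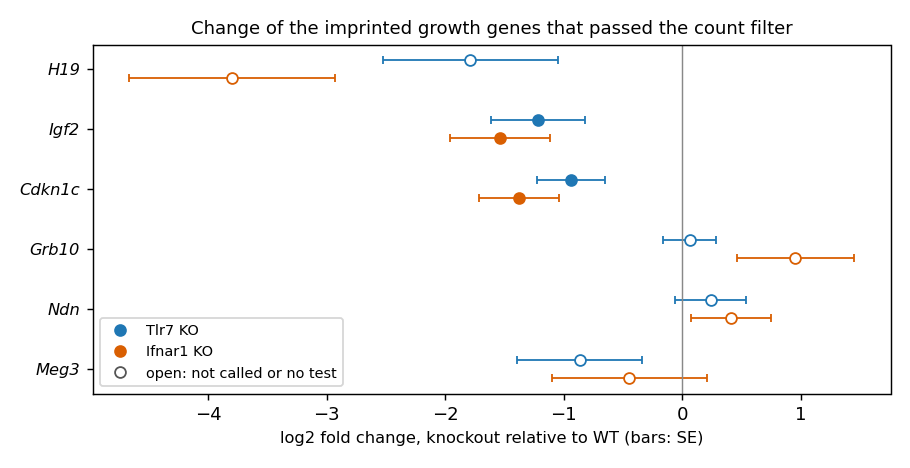
Log2 fold change relative to WT, with bars of 1 SE, for the 6 imprinted growth genes that passed the count filter, in Tlr7 KO (blue) and Ifnar1 KO (orange) mice; filled points passed an adjusted p of 0.05 and *H19* was given no test. *Igf2* (-1.22 and -1.54) and *Cdkn1c* (-0.94 and -1.38) are filled in both knockouts, and *Meg3*, *Ndn* and *Grb10* in neither.

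*Meg3*, *Ndn* and *Grb10* were detected in every mouse and did not pass the test in either knockout. *Meg3* is a maternally expressed non-coding RNA on chromosome 12. It had 38, 5 and 17 counts in WT mice (1.30, 0.211 and 0.464 CPM), 6 to 12 in Tlr7 KO mice (median 0.317 CPM) and 11, 13 and 15 in Ifnar1 KO mice (median 0.486 CPM). The WT mice spanned the values of both knockouts. Its log2 fold change was -0.87 ± 0.53 in Tlr7 KO (SE, edgeR adjusted p = 0.231) and -0.44 ± 0.65 in Ifnar1 KO mice (adjusted p = 0.653), and without WT 1 it was 0.057 and 0.49. Without WT 2, it passed in Tlr7 KO mice at -1.26 (adjusted p = 0.0372).

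*Ndn* encodes necdin, a growth suppressor that is lost in Prader-Willi syndrome. It had 0.801 to 1.30 CPM in WT, 0.823 to 1.79 in Tlr7 KO and 1.05 to 1.72 in Ifnar1 KO mice, so that all groups overlapped. Its log2 fold change was 0.24 ± 0.30 in Tlr7 KO (SE, edgeR adjusted p = 0.560) and 0.41 ± 0.34 in Ifnar1 KO mice (adjusted p = 0.402).

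*Grb10*, an adaptor that restrains insulin and IGF receptor signalling, had 81, 42 and 65 counts in WT, 34 to 69 in Tlr7 KO and 215, 49 and 79 in Ifnar1 KO mice. Ifnar1 KO 1 had 7.32 CPM and the other 10 mice had 1.77 to 3.31. Its log2 fold change was 0.06 ± 0.22 in Tlr7 KO (SE, edgeR adjusted p = 0.848) and 0.96 ± 0.50 in Ifnar1 KO mice (adjusted p = 0.203). Without Ifnar1 KO 1, the latter was 0.28. The salivary gland markers summed to 178 CPM in Ifnar1 KO 1. Ifnar1 KO 2 and WT 3, at 2103 and 2455 CPM of these markers, had 1.83 and 1.78 CPM of *Grb10*. The part of salivary gland tissue in the *Grb10* level was not tested.

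The other 4 genes were near the limit of detection and failed the filter. *Peg3*, a zinc finger gene, had 4, 14 and 9 counts in WT, 1, 2, 2, 2 and 1 in Tlr7 KO and 4, 5 and 5 in Ifnar1 KO mice. Tlr7 KO mice lay below all others for *Peg3*, each under the floor of 3 counts. In the second table they did not, since WT 1 was at 0.0612 CPM, from 1 count, and the Tlr7 KO mice at 0.0645 to 0.1495. *Mest*, which encodes a hydrolase-like protein, had 2, 4 and 4 counts in WT, 5, 5, 6, 5 and 12 in Tlr7 KO and 5, 8 and 9 in Ifnar1 KO mice. Every knockout mouse lay above every WT mouse for *Mest*, by 0.170 against 0.169 CPM at the nearest. In the second table the groups overlapped, with WT 2 at 0.289 CPM and Tlr7 KO 4 at 0.143. The 3′ end of *Mest* overlaps *Copg2* on the opposite strand, with 355 to 608 counts per mouse, and reads cannot be told apart there if strand was not used. *Plagl1* had 1 to 6 counts in WT, 0 to 3 in Tlr7 KO and 3 in each Ifnar1 KO mouse. *Dlk1*, a transmembrane protein that holds back differentiation, had 0, 1 and 0 counts in WT, 0 in 4 of 5 Tlr7 KO mice and 2 in the other, and 3, 1 and 4 in Ifnar1 KO mice. In a fit of all genes without the filter, *Peg3* fell by 2.17 ± 0.64 on the log2 scale in Tlr7 KO mice (SE, edgeR adjusted p = 0.0304, a size that rests on 1 or 2 counts per mouse), and *Mest* was at 1.30 ± 0.62 (adjusted p = 0.157) and 1.26 ± 0.67 (adjusted p = 0.235) in Tlr7 KO and Ifnar1 KO mice. The remaining values of these 4 genes against WT did not pass in that fit (adjusted p 0.189 to 0.891).

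Per kb of exon (CPM per kb over all annotated exons), *H19* was first in WT mice at 1.43 ± 1.05 (SD, n = 3), followed by *Cdkn1c* at 0.707 ± 0.0782, *Ndn* at 0.273 ± 0.0700, *Grb10* at 0.232 ± 0.0632 and *Igf2* at 0.151 ± 0.0368. *H19* and *Cdkn1c* did not differ beyond the spread, nor did *Ndn* and *Grb10*. The place of *H19* rests on WT 1 and WT 2, which hold muscle transcripts, since in WT 3 it was at 0.222 CPM per kb, below *Cdkn1c* at 0.630 and *Ndn* at 0.251. In Tlr7 KO mice the order was *H19* at 0.411 ± 0.300 (SD, n = 5), *Cdkn1c* at 0.371 ± 0.133, *Ndn* at 0.327 ± 0.0996 and *Grb10* at 0.242 ± 0.0425, all within the spread of the next. In Ifnar1 KO mice *H19* was at 0.101 ± 0.00981 (SD, n = 3), after *Grb10* at 0.457 ± 0.312, *Ndn* at 0.371 ± 0.0898 and *Cdkn1c* at 0.275 ± 0.0827. Behind *H19* were *Mest* at 0.0715 ± 0.0265 and *Igf2* at 0.0520 ± 0.0180. The *Grb10* mean there includes Ifnar1 KO 1 at 0.805 CPM per kb, and the medians of *Grb10* and *Ndn* were both 0.364.

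Between the knockouts, 0 of the 5 genes tested besides *H19* were called by edgeR or by DESeq2, where 1.51% of all 13937 genes were called, 0.746% lower and 0.768% higher in Tlr7 KO, and the groups did not overlap for 10.7%. At an unadjusted p under 0.05 there was 1 gene, *Grb10*, with a log2 fold change of -0.91 ± 0.38 in Tlr7 KO relative to Ifnar1 KO (SE, edgeR adjusted p = 0.293). Without Ifnar1 KO 1 it was -0.21 (adjusted p = 0.794), and without Ifnar1 KO 2 it was -1.26 (adjusted p = 0.0225). *Igf2* differed by 0.30 ± 0.47 (adjusted p = 0.792) and *Cdkn1c* by 0.43 ± 0.35 (adjusted p = 0.590), and their groups overlapped. The knockouts were not shown to be alike, since the SE of these differences are of the size of the differences or not far below them.

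Of 39 other genes listed as imprinted, 20 passed the filter, and whether they are imprinted in this gland was not measured. Of these, 7 rose and 4 fell in Tlr7 KO mice, and 3 rose and 3 fell in Ifnar1 KO mice. Over all genes tested, 15.3% rose and 17.1% fell in Tlr7 KO mice, and 6.92% rose and 12.1% fell in Ifnar1 KO mice. Scaled by library size only, some of the 7 that rose in Tlr7 KO mice stood below 0 (down to -0.18). They stayed above the median of all genes under that scaling, at -0.54. With a mouse left out, the number of the 20 that passed ranged from 6 (without WT 1 or WT 3) to 16 (without WT 2) in Tlr7 KO mice. In Ifnar1 KO mice it reached 10 without WT 2, and omission of Ifnar1 KO 1, Ifnar1 KO 3, WT 1 or WT 3 each left 0, and the number over all genes ranged from 0 to 4743 beside the 2648 with all mice. The median change of the 20 on the log2 scale was 0.30 and 0.33 beside -0.04 and -0.02 over all genes tested. *Slc22a18*, a transporter gene beside *Cdkn1c*, moved opposite to it. It had 10.3 to 10.4 CPM in WT, 16.1 to 19.8 in Tlr7 KO and 16.3 to 20.6 in Ifnar1 KO mice, and rose by 0.81 ± 0.09 (SE, edgeR adjusted p = 0.000726) and 0.81 ± 0.13 (adjusted p = 0.0211) on the log2 scale. In the same region, *Cd81* and *Tspan32*, tetraspanins of lymphocytes and other blood cells, fell. *Cd81* fell by 1.25 ± 0.24 (adjusted p = 0.00680) in Tlr7 KO and by 1.39 ± 0.30 (adjusted p = 0.0280) in Ifnar1 KO mice, and *Tspan32* by 2.33 ± 0.61 (adjusted p = 0.0221) and 2.99 ± 0.61 (adjusted p = 0.0273). The B and T cell markers fell in the same mice, and the sum of the gland epithelium genes was higher. Their part in these falls and rises was not tested.

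*Igf2r*, the receptor that takes up IGF2 for degradation, moved opposite to *Igf2*. It had 34.5 to 37.2 CPM in WT, 44.6 to 60.0 in Tlr7 KO and 51.5 to 70.5 in Ifnar1 KO mice, and rose by 0.61 ± 0.11 (SE, edgeR adjusted p = 0.00355) and 0.72 ± 0.14 (adjusted p = 0.0239) on the log2 scale. *Ddc*, the neighbour of *Grb10* that encodes the decarboxylase of dopamine synthesis, had 0.464 to 1.78 CPM in WT, 3.80 to 15.7 in Tlr7 KO and 2.68 to 11.2 in Ifnar1 KO mice. It rose by 3.21 ± 0.57 in Tlr7 KO (adjusted p = 0.00597) and was at 2.45 ± 0.73 in Ifnar1 KO mice (adjusted p = 0.0588), with no overlap with WT in either, while *Grb10*, 32.36 kb away, was not called. *Impact*, a translational regulator, fell by 0.88 ± 0.18 (adjusted p = 0.00619) and 1.02 ± 0.26 (adjusted p = 0.0369). *Sgce*, a sarcoglycan, also fell in Tlr7 KO mice, by 0.93 ± 0.28 (adjusted p = 0.0305), and *H13*, a signal peptide peptidase, rose by 0.42 ± 0.10 (adjusted p = 0.0124). Scaled by library size only, *H13* was at -0.04, which is 0.49 relative to the median of all genes under that scaling. The part of the gland epithelium, whose summed genes were also higher in both knockouts, in these rises was not tested.

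**Figure D4:**
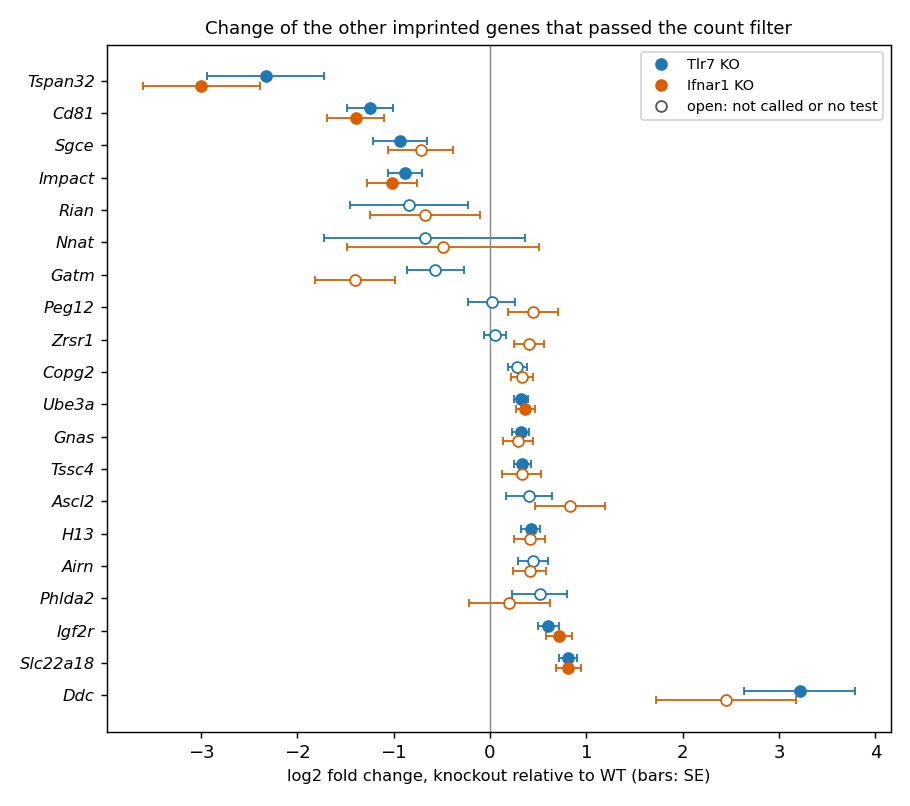
Log2 fold change relative to WT, with bars of 1 SE, for the 20 other imprinted genes that passed the count filter, in Tlr7 KO (blue) and Ifnar1 KO (orange) mice, ordered by the change in Tlr7 KO mice; filled points passed an adjusted p of 0.05. *Tspan32* (-2.33 and -2.99) is at the lower end and *Ddc* (3.21 and 2.45) at the upper end, and 11 genes in Tlr7 KO and 6 in Ifnar1 KO mice are filled.

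Of 19 genes of the IGF axis outside the 10, 13 passed the filter. Of these, 5 fell and 1 rose in Tlr7 KO mice, and 2 fell and 1 rose in Ifnar1 KO mice, with a median of -0.53 and -0.27 on the log2 scale. These are 6 and 3 of 13 genes, where 32.5% and 19% of all genes tested passed in either direction. With a mouse left out they ranged from 3 (without WT 3) to 9 (without WT 2) in Tlr7 KO mice, and in Ifnar1 KO mice from 0 (with the same 4 omissions as for the imprinted genes) to 6 (without WT 2). Among the binding proteins, *Igfbp4*, which holds IGFs away from their receptor, fell by 1.08 ± 0.18 in Tlr7 KO (SE, edgeR adjusted p = 0.00322) and by 1.23 ± 0.17 in Ifnar1 KO mice (adjusted p = 0.0195). *Igfbp7* fell by 0.65 ± 0.20 (adjusted p = 0.0344) and 1.14 ± 0.31 (adjusted p = 0.0457). *Insr*, the insulin receptor, rose by 0.36 ± 0.09 (adjusted p = 0.0150) and 0.60 ± 0.17 (adjusted p = 0.0446), and in Tlr7 KO mice it was at -0.12 when scaled by library size only, which is 0.42 relative to the median of all genes. The adaptors *Irs1* and *Irs2* fell by 1.48 ± 0.28 (adjusted p = 0.00530) and 1.16 ± 0.24 (adjusted p = 0.00894) in Tlr7 KO mice and were at 0.49 (adjusted p = 0.553) and -0.27 (adjusted p = 0.608) in Ifnar1 KO mice. In Ifnar1 KO mice *Irs1* had 0.896 to 3.54 CPM (median 0.921), against 1.03 to 1.52 in WT mice. *Irs2* had 13.1 to 32.4 CPM (median 14.4), against 20.5 to 26.4. Both Ifnar1 KO medians lay below every WT mouse, so the 0.49 of *Irs1* rests on its highest Ifnar1 KO mouse. The difference between the knockouts did not pass for *Irs1* (adjusted p = 0.0649) or *Irs2* (adjusted p = 0.313). *Stc1*, an inhibitor of the protease that cleaves IGFBP4, fell by 1.59 ± 0.42 in Tlr7 KO mice (adjusted p = 0.0175). It had 12, 17 and 35 counts in WT and 4 to 8 in Tlr7 KO mice and passed the filter through its WT counts, and without the filter it was at -1.60 ± 0.42 (adjusted p = 0.0200).

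Of 10 genes that lay down, protect or keep imprints, 7 were tested, and 2 passed in Tlr7 KO and 1 in Ifnar1 KO mice, beside 32.5% and 19% of all genes tested. *Dnmt1*, the maintenance DNA methyltransferase, fell by 1.07 ± 0.21 on the log2 scale in Tlr7 KO (SE, edgeR adjusted p = 0.00592) and by 1.29 ± 0.26 in Ifnar1 KO mice (adjusted p = 0.0254). *Ctcf*, the factor that insulates *Igf2* from the shared enhancers on the maternal chromosome, fell by 0.24 ± 0.06 in Tlr7 KO mice (adjusted p = 0.0188), and the other 5 did not pass in either knockout. *Dnmt1* is also high in dividing cells. None of the 6 proliferation markers passed in either knockout, with median log2 fold changes of -0.36 in Tlr7 KO and -1.62 in Ifnar1 KO mice. At an unadjusted p under 0.05 by edgeR there were 1 and 2 of them. They summed to 11.8 to 28.9 CPM in WT, 18.9 to 24.9 in Tlr7 KO and 10.3 to 19.01 in Ifnar1 KO mice. Their part in the level of *Dnmt1* was not tested.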

How the data were processed

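RNA of whole lacrimal glands was sequenced by the authors on an Illumina HiSeq instrument. The deposited estimated counts were made by the authors with salmon and tximport on mm10, and are named as normalized although their totals differ between libraries, so they were used as rounded counts. The other deposited table, of counts whose counter is not given in the sources used here, served as an alternative. HISAT2 2.1.0 is named in the submitters' processing notes. A further column of 1 Ifnar1 KO mouse, left out by the authors and with no sample in the labels used here, was not used.

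Fits were run with edgeR 4.0.16 on R 4.3.3, and DESeq2 1.42.0 was an alternative tool. The 13937 genes with at least 30 counts summed over WT mice were tested by edgeR's quasi-likelihood test (two-sided, robust, TMM scaling) in separate fits of each pair of groups, with Benjamini-Hochberg adjustment over all of them and a threshold of 0.05. CPM used TMM factors, and likeness to *H19* used log2 CPM with a prior count of 2. The floor was 3 counts, which covers counting error only. The fits were tested on simulated data first. The genes named were the 10, those past the threshold in the other imprinted, IGF axis, neighbour and imprint maintenance lists (at most 8 per list), marker sums, the 5 genes most like *H19* (1 of them is not reported here), and Tlr7 and Ifnar1. These genes, lists and tests were chosen with earlier results of these data known, and lists came from general knowledge. Alternatives were DESeq2, RLE factors, library size only, filterByExpr, no filter, all 11 mice in a single fit, a replicate block, the second table, each mouse left out, and, added after the data were seen, edgeR without robust estimation and omission of mice with muscle or salivary gland transcripts. Annotation is GENCODE M21 on GRCm38, and 2 of the 10 genes had no promoter sequence.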

Additional observations from a re-analysis of the deposited data

Results flagged for a closer look

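In 31 checks, each of a named gene in the 5 Tlr7 KO mice, 3 had a mouse far from the others, where chance gives about 1 in 20 if values are spread normally, which counts near 0 are not. *Mest* was at 0.634 CPM in Tlr7 KO 5, and the next mouse was at 0.228. *Dlk1* was at 0.0759 CPM in Tlr7 KO 3, from 2 counts, and at 0 in the other 4, so that any count in a single mouse would have stood apart. *Igfbp4* was at 19.4 CPM in Tlr7 KO 5, and the next mouse was at 13.5. The checks did not take in every gene named above. *Tnnt3* and *Tnni2* are not among the 3, although Tlr7 KO 4 had 33.9 and 18.2 CPM beside Tlr7 KO medians of 0.038 and 0.106.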

How the results depend on the processing

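The number of imprinted growth genes called besides *H19* was 2 in each knockout relative to WT and 0 between the knockouts. With each mouse left out in turn it ranged from 0 to 2 in Tlr7 KO relative to WT, from 0 to 2 in Ifnar1 KO relative to WT and from 0 to 1 between the knockouts, where *Grb10* was called (adjusted p = 0.0225) without Ifnar1 KO 2. It was 0 without the mice with muscle transcripts in both knockouts relative to WT. Relative to WT, Ifnar1 KO mice had 0 called with scaling by library size only, 1 without a filter and 0 without the mice with salivary gland transcripts, which leaves a single Ifnar1 KO mouse that is assumed to vary like the others. The causes were not tested, beyond the smaller number of mice. Same-numbered mice of WT and a knockout did not deviate together (correlations -0.43 to 0.04). Between the knockouts these correlations were all positive, at 0.08 to 0.34. With the replicate block 0 of the 5 growth genes, 0 of the 20 other imprinted genes and 0 of the 13 IGF axis genes tested were called in each knockout relative to WT. Of all genes, 17 and 0 were called in Tlr7 KO and Ifnar1 KO mice. With library sizes alone as the scale, the median of all genes tested was at -0.54 and -0.31 in Tlr7 KO and Ifnar1 KO mice. Directions turned for *H19* in Tlr7 KO mice (0.34 without the mice with muscle transcripts), for *Ndn* (-0.32) and *Grb10* (-0.45) in Tlr7 KO mice with library size only (0.22 and 0.085 relative to the median of all genes, so that only the common shift turned them), and for *Meg3* in Ifnar1 KO mice (0.056 without the mice with muscle transcripts). With a mouse left out, *Meg3* ranged from -1.26 to 0.057 in Tlr7 KO and from -0.84 to 0.49 in Ifnar1 KO mice, *Grb10* from -0.049 to 0.31 in Tlr7 KO mice, and *Ndn* between the knockouts from -0.36 to 0.0062. *Igf2* and *Cdkn1c* kept their direction under all alternatives run, and *Igf2* ranged from -2.34 to -1.21 in Ifnar1 KO mice. Low counts limit all 10 genes: WT mice had at most 139 counts of any of them.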
